A study of Mus musculus with 14 samples.

Results

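The genes described here are 10 members of the Hippo pathway and its transcriptional output, measured in RNA of supporting cells (SCs) from the mouse cochlea. They were chosen by name, with earlier results of these data known. They comprise the coactivators Yap1 and Wwtr1 (the gene of TAZ), their DNA-binding partners Tead1 and Tead2, the kinase gene Lats2 and the cofactor gene Vgll4. The target genes Ctgf, Cyr61, Ankrd1 and Amotl2 complete the set. All 10 were found among the 35976 genes counted, and 9 had enough reads for a test. Every library came from Lfng-EGFP mice kept on a C57BL/6 background, which carry a bacterial artificial chromosome transgene that places EGFP under Lfng regulatory sequence and so labels SCs in green. Cochleae were explanted at P0 (P0-P1 in the growth protocol) or at P6, cultured for 24 hours with 2 μM compound E (CompE), a γ-secretase inhibitor that blocks the release of the Notch intracellular domain, or with an equal volume of DMSO, and GFP-positive cells were then sorted. There were 4 CompE and 4 DMSO libraries at P0 and 3 of each at P6. Tissue of several organs was pooled in a tube, and the sort took the reporter's cells as a whole, so SC subtypes are not separated. CompE and DMSO libraries of the same replicate number shared a batch, whereas no batch held both ages, so age and batch cannot be told apart.

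In the Hippo pathway, the kinases Mst1 and Mst2 (genes Stk4 and Stk3) activate the kinases Lats1 and Lats2, which phosphorylate YAP and TAZ and keep them out of the nucleus. When the pathway is off, YAP and TAZ enter the nucleus and switch on genes through the TEAD factors, and Vgll4 competes with them for TEAD. Ctgf, Cyr61, Ankrd1 and Amotl2 are genes commonly read as that output, and Lats2 and Amotl2 also feed back to restrain YAP. In the inner ear, Yap1 and the TEAD factors are known for their part in the growth of the sensory epithelium before birth. The mRNA of a pathway component does not show the phosphorylation or the place of its protein.

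The starts of the target genes are shown because TEAD factors are known to bind the letters CATTCC, or GGAATG on the other strand (the M-CAT element). The 250 bases before each RefSeq transcript start were read for GRCm38.p6 and searched for these letters on both strands. In the GENCODE M21 annotation, the windows of Amotl2, Ankrd1, Vgll4 and Lats2 lie inside the gene. Part of the Tead2 window and of a Wwtr1 window does too. For these the start used is not the outermost annotated start. The letters were found in 6 of the 8 members that had a window, namely Yap1, Wwtr1, Vgll4, Cyr61, Ankrd1 and Amotl2, and not in Tead2 or Lats2. Over all genes, 12.6% of 32851 windows held them. That share is per window, whereas a member was counted if any of its windows matched (Wwtr1 and Lats2 had 2 each). Tead1 and Ctgf had no entry. A match of letters is a description of the window and not a binding site. The windows of Cyr61 and Amotl2, whose levels changed with age, of Ankrd1, which was barely counted, and of Tead2, which changed with age and lacks the letters, read 5′ to 3′ as follows, with the match in capitals.
Cyr61 (Ccn1 in RefSeq), chr3:145649986-145650235, minus strand, match 103 bases upstream: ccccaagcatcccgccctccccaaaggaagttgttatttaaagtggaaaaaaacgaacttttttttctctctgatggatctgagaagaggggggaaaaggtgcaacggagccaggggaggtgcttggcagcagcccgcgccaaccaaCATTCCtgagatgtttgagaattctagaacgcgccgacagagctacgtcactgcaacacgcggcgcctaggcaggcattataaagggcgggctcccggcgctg
Amotl2, chr9:102717554-102717803, plus strand, match 65 bases upstream: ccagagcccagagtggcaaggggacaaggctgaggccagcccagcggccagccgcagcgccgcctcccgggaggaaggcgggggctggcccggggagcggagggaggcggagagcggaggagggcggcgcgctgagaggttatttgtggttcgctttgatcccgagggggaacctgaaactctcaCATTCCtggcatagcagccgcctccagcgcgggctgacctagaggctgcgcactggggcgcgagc
Ankrd1, chr19:36119845-36120094, minus strand, matches 210 and 123 bases upstream: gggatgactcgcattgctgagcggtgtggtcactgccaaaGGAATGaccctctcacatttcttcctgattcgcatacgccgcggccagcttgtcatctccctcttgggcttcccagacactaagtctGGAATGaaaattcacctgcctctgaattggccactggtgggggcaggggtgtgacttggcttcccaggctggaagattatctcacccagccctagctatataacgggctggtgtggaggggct
Tead2, chr7:45215542-45215791, plus strand, no match: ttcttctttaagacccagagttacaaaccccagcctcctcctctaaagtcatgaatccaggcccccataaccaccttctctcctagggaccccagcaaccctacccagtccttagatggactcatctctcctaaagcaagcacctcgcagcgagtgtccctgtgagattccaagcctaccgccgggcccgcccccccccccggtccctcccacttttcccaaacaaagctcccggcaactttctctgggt

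Totals ran from 19415066 to 44430063 counts per library. Apart from Ankrd1, the lowest count of a member was 44 (Amotl2 in CompE replicate 2 at P6). The cDNA was amplified without molecular identifiers, so counts do not give the error of sampling molecules. All 8 SC markers checked (Sox2, Sox9, Sox10, Prox1, Lfng, Fgfr3, Jag1 and Hey2) were counted in every library, and their summed level ran from 5926 to 11049 RPM (reads per 1000000 counted reads) in DMSO and from 5156 to 6229 in CompE at P0, and from 2944 to 6472 and from 2004 to 3700 at P6. The lowest DMSO library at P0 was replicate 1. The sum includes Lfng, which the study counts among the Notch targets lowered by CompE, so it is not a measure of SC number alone. Summed mesenchyme markers ran from 928 to 1608 RPM in most libraries and were higher in DMSO replicates 2 and 3 (2480 and 4125) and CompE replicate 3 (3423) at P6. Lum made up most of this sum, with a DMSO mean of 754 RPM at P0 and 2021 at P6, whereas Col1a1 stood at 3.69 and 1.18. Under CompE at P0, 6 of the 7 markers lay lower and 1 higher. The summed level was nonetheless higher under CompE, at 1228 to 1382 RPM against 956 to 1181 in DMSO. Mean Lum was 754 RPM in DMSO and 1051 in CompE at P0. The Notch targets Hes1, Hes5, Heyl and Nrarp were below their DMSO level under CompE at both ages, with log2 differences of -2.70 to -5.05 at P0, where 3 of the 4 passed the thresholds used here, and of -1.61 to -4.27 at P6, where none did in edgeR. A gene is called when edgeR's quasi-likelihood test, adjusted over all genes, gives an adjusted p of at most 0.01 and the change is at least 2-fold.

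Levels of different genes were compared as RPKM (RPM per kilobase of exon). In the DMSO libraries at P0 (mean ± SD, n = 4), Cyr61 stood highest at 96.1 ± 33.4 RPKM, followed by Ctgf at 59.9 ± 17.4 and Wwtr1 at 37.2 ± 7.66. Tead2 followed at 15 ± 1.81 RPKM, then Yap1 at 10.7 ± 3.47, Vgll4 at 8.98 ± 1.52, Amotl2 at 5.63 ± 0.643 and Lats2 at 4.48 ± 0.278. Tead1 was at 0.827 ± 0.105 RPKM and Ankrd1 at 0.00709 ± 0.00858. Neighbours in this order overlapped between libraries except at 4 steps, from Wwtr1 to Tead2, from Vgll4 to Amotl2, from Lats2 to Tead1 and from Tead1 to Ankrd1. At P6 in DMSO (n = 3), the order had changed, with Wwtr1 first at 32.5 ± 5.11 RPKM, then Vgll4 at 12.9 ± 1.28, Cyr61 at 11.3 ± 4.70 and Ctgf at 7.31 ± 1.27. The remaining members at P6 were Tead2 at 6.97 ± 1.80 RPKM, Yap1 at 6.53 ± 1.08, Lats2 at 1.41 ± 0.346, Tead1 at 1.02 ± 0.514 and Amotl2 at 0.967 ± 0.592, with Ankrd1 at 0. Apart from Ankrd1, only the steps from Wwtr1 to Vgll4 and from Yap1 to Lats2 separated neighbours at P6. Among paralogs of members, chosen after their values were seen, Lats1 was at 29.6 ± 6.85 RPKM in the DMSO libraries at P0, Tead3 at 1.80 ± 0.331 and Tead4 at 0.294 ± 0.0570. Tead2 therefore stood above the other TEAD genes and Lats1 above Lats2 in each DMSO group.

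**Figure D1:**
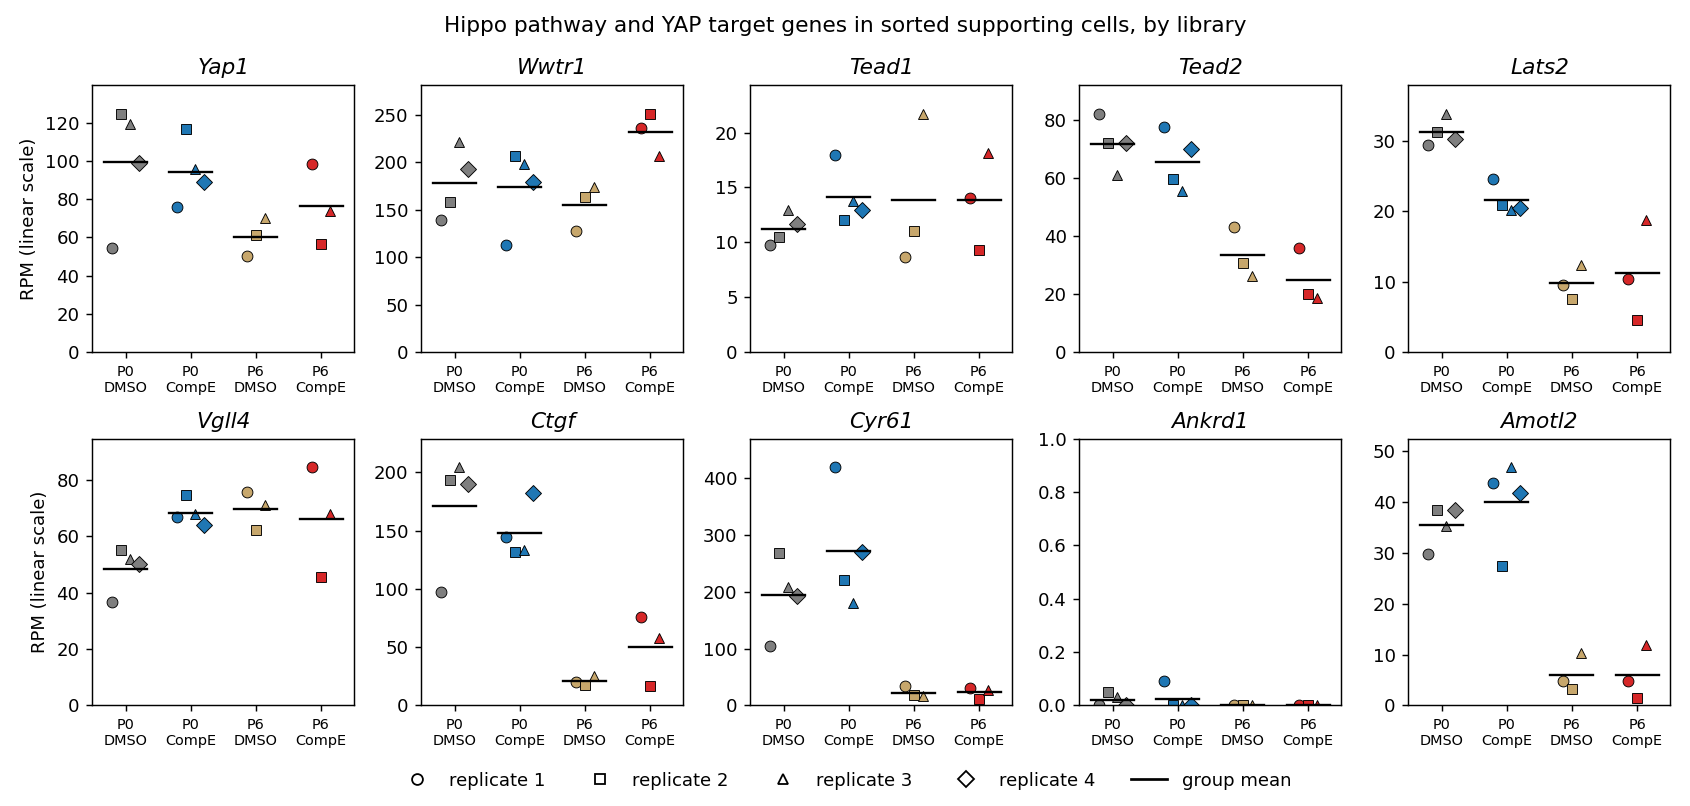
Level of each of the 10 genes in RPM (vertical axis) in the P0 and P6 libraries treated with DMSO or CompE, with a point for each library and a bar at the group mean. Cyr61, Ctgf, Amotl2, Lats2 and Tead2 sat lower in every P6 library than in any P0 library, while Yap1, Wwtr1, Tead1 and Vgll4 overlapped between the ages.

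The first comparison asked how these genes differed between SCs of P6 and P0 explants. In DMSO, 5 of the 9 members tested fell, namely Cyr61, Ctgf, Amotl2, Lats2 and Tead2, and none rose. In the same comparison 3.38% of all 17090 genes tested were called lower and 7.12% were called in either direction. The median log2 fold change of the 9 members was -1.03, against -0.05 for all genes. The members were chosen with earlier results of these data known, so their difference from all genes is a description and not a test. In CompE, where 2.89% of genes were called lower and 6.43% in either direction, 3 of the 9 members fell (Cyr61, Amotl2 and Tead2) and none rose, with a median of -0.83 against -0.03. These 3 were called in both treatments, as were 1.59% of all genes. In 5 members (Cyr61, Ctgf, Amotl2, Lats2 and Tead2) every P6 library lay below every P0 library, which held for 10.1% of all genes, and for 18.7% within DMSO and 25% within CompE. The DMSO and CompE comparisons share no libraries, but they share the estimate of the spread and the batches, and CompE and DMSO libraries of a batch deviated together, so a call in both treatments is not independent evidence.

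Yap1, the coactivator that the Lats kinases hold out of the nucleus, was at 54.4, 125.0, 119.7 and 98.9 RPM in the DMSO libraries at P0 and at 50.1, 61.3 and 70.1 at P6. In CompE its levels were 76.2, 117.1, 95.7 and 89.2 RPM at P0 and 98.6, 56.4 and 74.1 at P6. The ages overlapped in both treatments, through DMSO replicate 1 at P0 and CompE replicate 1 at P6. The log2 fold change from P0 to P6 was -0.66 ± 0.28 (SE) in DMSO (adjusted p = 0.109) and -0.19 ± 0.28 in CompE (adjusted p = 0.669), and neither was called.

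Wwtr1, the gene of TAZ, was at 139.5, 157.8, 221.7 and 192.8 RPM in DMSO at P0 and at 127.7, 163.2 and 174.6 at P6. Its levels in CompE were 113.3, 206.3, 198.7 and 179.8 RPM at P0 and 236.4, 251.6 and 207.0 at P6. The DMSO groups overlapped, and in CompE the P6 libraries all stood above the P0 libraries, by a small margin. The log2 fold change was -0.13 ± 0.23 in DMSO (adjusted p = 0.720) and 0.54 ± 0.23 in CompE (adjusted p = 0.111). In CompE, 13.2% of all genes were higher at P6 without overlap.

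Tead1, a TEAD factor that brings YAP and TAZ to DNA, was at 9.76 to 13.0 RPM in DMSO and 12.1 to 17.9 in CompE at P0. At P6 its DMSO libraries were at 8.63, 11.1 and 21.7 RPM and its CompE libraries at 14.0, 9.34 and 18.1, with replicate 3 the highest in both. The log2 fold changes of 0.36 ± 0.28 in DMSO and 0.09 ± 0.28 in CompE were not called (adjusted p = 0.389 and 0.842), and both turned below 0, to -0.07 and -0.11, when the P6 replicate 3 pair was left out. Replicate 3 also had the highest summed mesenchyme markers of its group at P6, and their part in the Tead1 level was not tested.

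Tead2, the TEAD factor with the highest level in these cells, was at 82.4, 72.0, 61.2 and 72.3 RPM in DMSO at P0 and at 43.0, 30.7 and 26.4 at P6. In CompE it was at 77.7, 59.6, 55.7 and 70.0 RPM at P0 and at 36.0, 19.9 and 18.5 at P6. The ages did not overlap in either treatment. Tead2 fell 2.05-fold in DMSO (log2 fold change -1.03 ± 0.23, adjusted p = 0.00562) and 2.41-fold in CompE (-1.27 ± 0.23, adjusted p = 0.00172). The DMSO change lay close to the 2-fold threshold and was no longer called without P0 DMSO replicate 1, 2 or 4, without P6 DMSO replicate 2 or 3, or without the P0 replicate 1 or P6 replicate 3 pair, with log2 fold changes of -0.85 to -1.03 and adjusted p of 0.0133 to 0.0251. The CompE call was lost without P6 CompE replicate 2 (-1.16, adjusted p = 0.0125).

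Lats2, the kinase that phosphorylates YAP and TAZ and is itself a gene they switch on, was at 29.4, 31.3, 33.9 and 30.3 RPM in DMSO at P0 and at 9.47, 7.56 and 12.4 at P6. Its CompE levels were 24.6, 20.9, 20.2 and 20.5 RPM at P0 and 10.3, 4.53 and 18.7 at P6. All P6 libraries were below all P0 libraries, with CompE replicate 3 at P6 the closest to the P0 range. Lats2 fell 3.05-fold in DMSO (log2 fold change -1.61 ± 0.32, adjusted p = 0.00322), a call that was lost without P6 DMSO replicate 1 (adjusted p = 0.0130) or 2 (adjusted p = 0.0191). In CompE the log2 fold change was -0.83 ± 0.31 and was not called (adjusted p = 0.0728), but it was called without P6 CompE replicate 3 (-1.39, adjusted p = 0.00446) and without the P6 replicate 3 pair (-1.38, adjusted p = 0.00377). Lats2 shares 42.4% of its exon bases with Gm49361, a gene annotated on the same strand that was not counted as a gene of its own, so reads of the shared part cannot be assigned with certainty.

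Vgll4, which competes with YAP for TEAD, was at 36.6, 55.2, 51.9 and 50.2 RPM in DMSO at P0 and at 75.9, 62.3 and 71.3 at P6. In CompE it was at 66.8, 74.6, 68.0 and 64.0 RPM at P0 and at 84.6, 45.7 and 68.1 at P6. The DMSO groups did not overlap, with P6 the higher (12.4% of genes were higher at P6 without overlap in DMSO), whereas the CompE groups did. The log2 fold change was 0.59 ± 0.19 in DMSO (adjusted p = 0.0395) and 0.08 ± 0.19 in CompE (adjusted p = 0.804), and neither was called.

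The secreted matrix proteins encoded by Ctgf (CCN2) and Cyr61 (CCN1) are the most widely used readouts of YAP. Ctgf was at 97.2, 193.8, 204.4 and 189.6 RPM in DMSO at P0 and at 19.9, 17.9 and 24.9 at P6. In CompE it was at 144.1, 131.2, 133.5 and 182.2 RPM at P0 and at 75.8, 16.4 and 57.8 at P6. No P6 library reached the lowest P0 library, and CompE replicates 1 and 3 stood above the other 4 libraries of P6. Ctgf fell 7.90-fold in DMSO (log2 fold change -2.98 ± 0.42, 95% interval -3.88 to -2.08, adjusted p = 0.000292), a call that held in every alternative. In CompE the log2 fold change was -1.45 ± 0.39 and missed the threshold (adjusted p = 0.0175), but it was called by DESeq2 (-1.46, adjusted p = 0.00115) and without P6 CompE replicate 1 (-1.89, adjusted p = 0.00979). Gm15270, annotated antisense to Ctgf, overlaps 23.2% of its exon bases, and without a statement on strand in the counting their reads cannot be told apart.

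Cyr61 was at 105.3, 268.3, 208.8 and 193.6 RPM in DMSO at P0 and at 33.7, 18.3 and 16.4 at P6. Its CompE libraries were at 419.8, 221.6, 179.7 and 270.0 RPM at P0 and at 30.8, 11.3 and 26.5 at P6. The highest P6 library was far below the lowest P0 library. Cyr61 fell 8.23-fold in DMSO (log2 fold change -3.04 ± 0.43, 95% interval -3.97 to -2.11, adjusted p = 0.000310) and 10.9-fold in CompE (-3.44 ± 0.44, 95% interval -4.39 to -2.50, adjusted p = 0.000157). Both calls held in every alternative, in which the log2 fold change ran from -3.42 to -2.82 in DMSO and from -3.72 to -3.13 in CompE.

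Amotl2, an angiomotin-family gene whose protein binds YAP, was at 29.8, 38.3, 35.2 and 38.4 RPM in DMSO at P0 and at 4.76, 3.21 and 10.3 at P6. Its CompE levels were 43.7, 27.4, 46.8 and 41.8 RPM at P0 and 4.77, 1.53 and 11.9 at P6. Every P6 library was below every P0 library, and replicate 3 was the highest at P6 in both treatments. Amotl2 fell 5.6-fold in DMSO (log2 fold change -2.48 ± 0.52, adjusted p = 0.00398) and 6.12-fold in CompE (-2.61 ± 0.52, adjusted p = 0.00316). The DMSO call was lost without P0 DMSO replicate 4 or P6 DMSO replicate 1 or 2 (adjusted p of 0.0105 to 0.0215), and the CompE call without P6 CompE replicate 1 (adjusted p = 0.0170).

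Ankrd1, a muscle and stress gene often used as a YAP readout in other cells, had 4 counts in CompE replicate 1, 2 in DMSO replicate 2 and 1 in DMSO replicate 3 at P0, and 0 in the other 11 libraries, all 6 of P6 among them. A count of 0 allowed at most 0.0728 to 0.155 RPM in those libraries (3 counts of the total, for counting error only). Ankrd1 was below the filter on low counts, and no difference between groups was detectable at this depth.

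**Figure D2:**
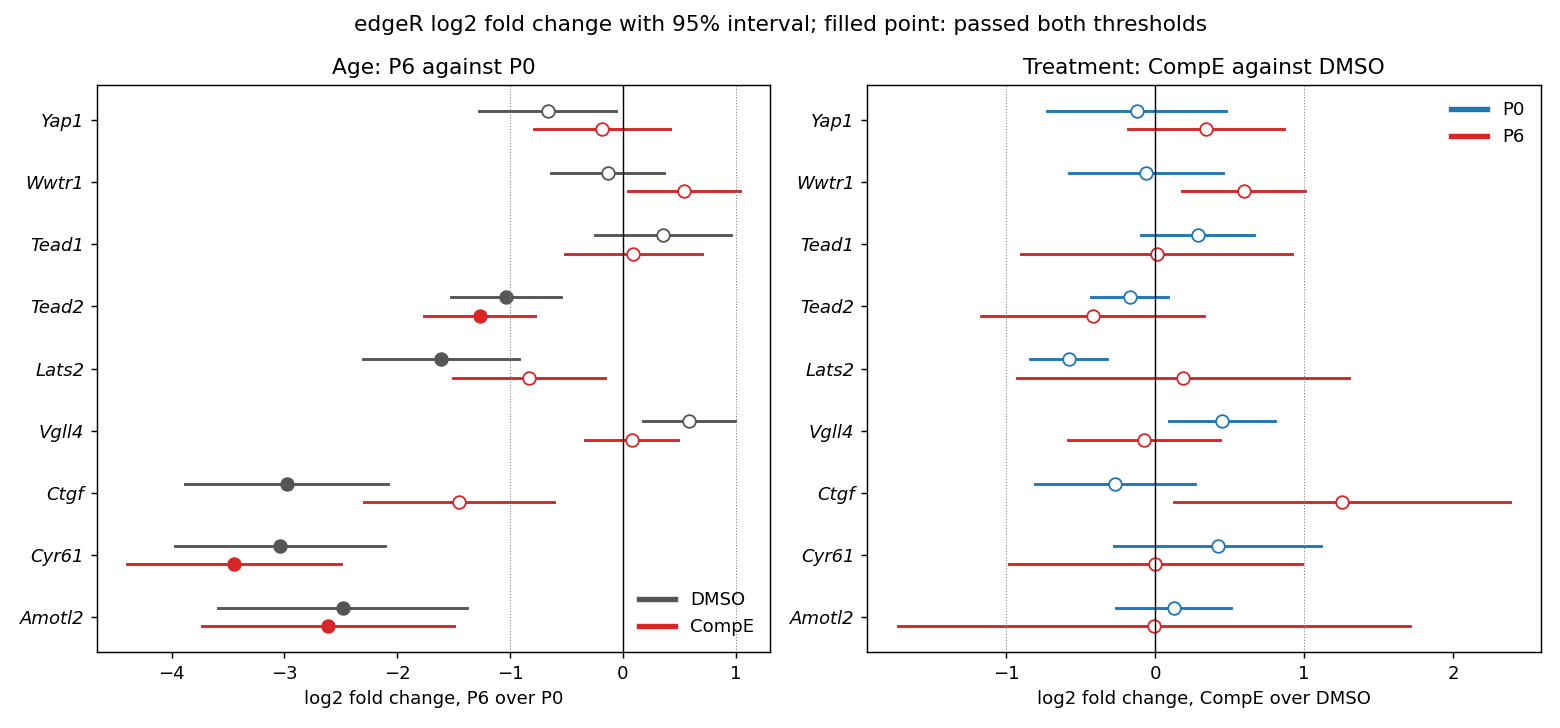
Log2 fold change with its 95% interval (horizontal axis) for the 9 members tested, from P0 to P6 in DMSO and CompE (left) and from DMSO to CompE at P0 and P6 (right), with filled points where both thresholds were passed and dotted lines at 2-fold. Filled points appear only in the age panel, at Tead2, Lats2, Ctgf, Cyr61 and Amotl2 in DMSO and at Tead2, Cyr61 and Amotl2 in CompE.

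Genes that respond quickly to stress and dissociation moved with age as well. Of 11 immediate-early genes (Fos, Fosb, Jun, Junb, Egr1, Atf3, Ier2, Dusp1, Nr4a1, Zfp36 and Btg2), 7 fell in DMSO and 10 in CompE, with median log2 fold changes of -1.51 and -2.08. Over all genes, 3.38% in DMSO and 2.89% in CompE were called lower, with medians of -0.05 and -0.03. Their summed level ran from 2545 to 5605 RPM in DMSO and from 4084 to 7933 in CompE at P0, and from 1198 to 1383 and from 1279 to 1465 at P6, without overlap between the ages. Within P0, the library with the highest sum (CompE replicate 1, 7933 RPM) also had the highest Cyr61 level, and the library with the lowest sum (DMSO replicate 1, 2545 RPM) had the lowest Cyr61 and Ctgf levels. Ctgf did not peak with the sum, standing at 144.1 RPM in CompE replicate 1, below 4 other P0 libraries (182.2 to 204.4 RPM). Cyr61 and Ctgf are themselves genes that many cells induce within hours of a stimulus. Of the SC markers, 2 of 8 fell with age in DMSO and 3 of 8 in CompE, against 3.38% and 2.89% of all genes. By sign, 7 lay lower and 1 higher at P6 in DMSO, and 6 lower and 2 higher in CompE. What part these shifts had in the age difference of the members was not tested, and in bulk RNA fewer cells of a type and less RNA per cell cannot be told apart. Of 7 hair cell markers 1 rose and 1 fell and of 3 neuron markers 1 rose with age in each treatment. In either direction, 7.12% of all genes were called in DMSO and 6.43% in CompE. No mesenchyme, smooth muscle and pericyte, endothelium, macrophage or Schwann cell marker was called in either comparison. Summed endothelium markers stayed at or below 10.8 RPM, smooth muscle and pericyte markers at or below 19.2, and macrophage markers at or below 75.8 in every library. By sign, all 4 macrophage markers lay above their P0 level, with median log2 fold changes of 2.21 in DMSO and 2.83 in CompE. So did all 3 endothelium markers (1.14 and 0.76) and all 3 Schwann cell markers (0.22 and 2.02). In each treatment 4 mesenchyme markers lay higher and 3 lower, and 2 smooth muscle and pericyte markers higher and 1 lower.

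Among 31 further regulators of the pathway, 29 were tested and Vgll1 and Vgll2 had 0 counts in every library. The core kinases and their adaptors were measured at both ages, and none of Stk3, Stk4, Sav1, Mob1a, Mob1b, Lats1 and Nf2 was called in any comparison. In DMSO, 1 of the 29 fell with age and none rose, a share near the 3.38% of all genes that were called lower. It was Ajuba, a LIM protein that restrains the Lats kinases, which went from 41.2 ± 6.25 RPM (SD, n = 4) to 18.0 ± 4.36 (n = 3), with a log2 fold change of -1.13 (adjusted p = 0.000930). Wwc1, the gene of KIBRA, an activator of the Lats kinases, missed the fold threshold in DMSO (-0.90, adjusted p = 0.00378). In CompE, where 2.89% of all genes were called lower, 2 fell and none rose, namely Wwc1 (-1.55, adjusted p = 0.000111) and Frmd6 (-2.03, adjusted p = 0.00174), the latter the mammalian relative of the fly upstream regulator Expanded. The medians of the list were -0.35 in DMSO and -0.38 in CompE, against -0.05 and -0.03 over all genes. DESeq2 called 3 of the 29 lower in DMSO. The edgeR count in DMSO was 0 with P6 DMSO replicate 2 left out, 2 with P6 DMSO replicate 3 left out and 3 with the P6 replicate 3 pair left out, and in CompE it was 1 with P6 CompE replicate 2 left out.

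Of 16 other genes reported as YAP targets in other tissues, none was called higher with age in DMSO. Called lower were 2, against 3.38% of all genes. These were Fjx1 (-2.10, adjusted p = 0.00159), from 17.0 ± 4.92 to 3.79 ± 2.14 RPM, and Tgfb2, a secreted growth factor gene (-1.02, adjusted p = 0.00228), from 1303 ± 126 to 611 ± 135 RPM. In CompE, where 2.89% of all genes were called lower, 1 of the 16 fell. It was Igfbp3, a secreted binding protein of insulin-like growth factors (-2.02, adjusted p = 0.00438), from 1280.1 ± 60.6 to 289 ± 188 RPM. Igfbp3 was not called without P0 CompE replicate 2 or 4, without P6 CompE replicate 2 or 3, or without the P0 replicate 1 pair. Without P6 CompE replicate 1, 2 of the list were called. In DMSO 1 was called when P0 DMSO replicate 2 or 4, P6 DMSO replicate 2 or 3, or the P6 replicate 3 pair was left out. The medians were -0.40 in DMSO and -0.12 in CompE. In DMSO 10 of the list lay lower at P6 and 6 higher. Among the latter were Axl (0.82, adjusted p = 0.0203), Nt5e (1.37, adjusted p = 0.0446) and Gadd45a (0.70, adjusted p = 0.0476), none of them called. The 4 readout genes and the longer list overlap in no gene.

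**Figure D3:**
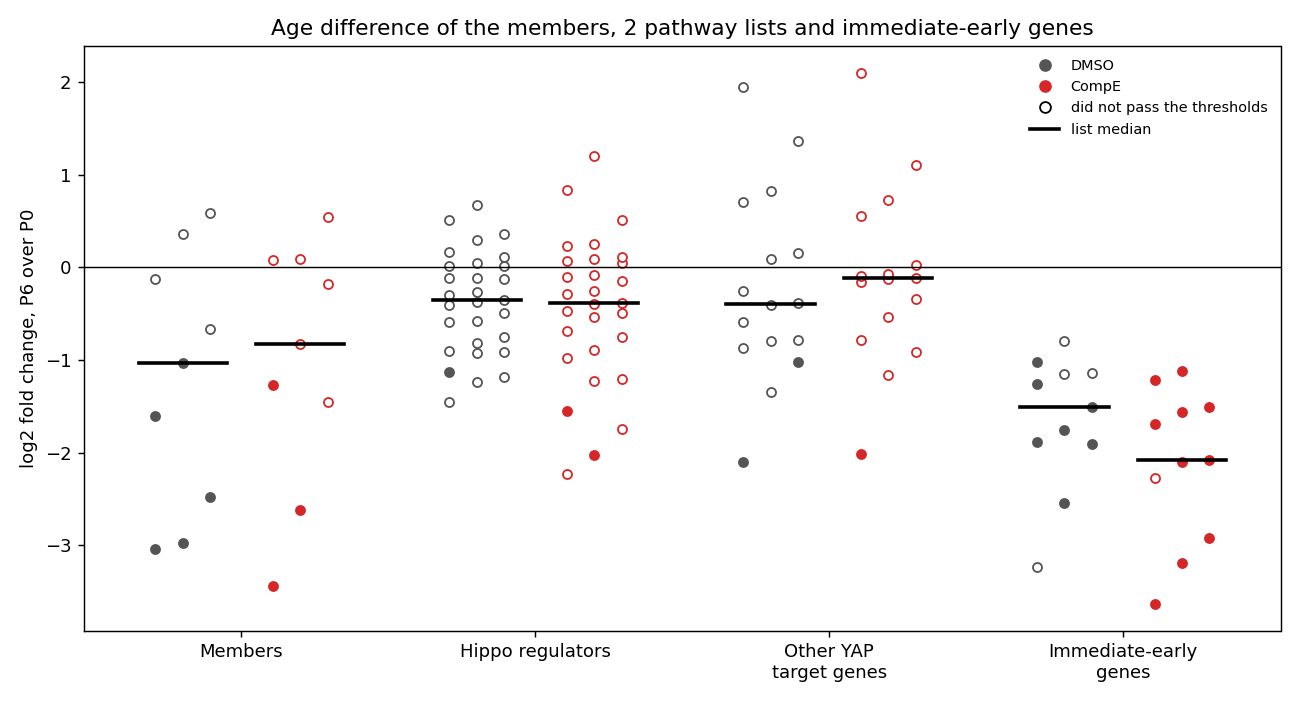
Log2 fold change from P0 to P6 (vertical axis) of each tested gene of the members, the 2 pathway lists and the immediate-early genes, in DMSO and CompE, with filled points where both thresholds were passed and a bar at the median of each list. The members spread from -3.04 to 0.59 in DMSO and from -3.44 to 0.54 in CompE, and the immediate-early genes lie below 0 throughout.

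The second comparison asked whether Notch inhibition for 24 hours changed these genes in SCs at P0, when 1.22% of 15937 genes were called by edgeR (2.2% with a block for the replicate number, which pairs libraries of a batch). No member was called, with or without the block or by DESeq2, and Lats2 and Vgll4 were the 2 with an unadjusted p under 0.05, as had 13.4% of all genes. The median log2 fold change of the 9 members was -0.06, against 0.01 for all genes.

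The clearest shift was in Lats2. Its level was lower under CompE than under DMSO in all 4 pairs, with log2 ratios of RPM from -0.74 to -0.26, and the CompE libraries (20.2 to 24.6 RPM) all lay below the DMSO libraries (29.4 to 33.9 RPM). The log2 fold change was -0.58 ± 0.12 (95% interval -0.84 to -0.32, adjusted p = 0.0223), 1.5-fold lower, which passes neither threshold. It ran from -0.67 to -0.52 over the alternatives, with an adjusted p of 0.000210 (DESeq2) to 0.615 (all 14 libraries in 1 fit). Among all genes, 4.76% were lower under CompE without overlap.

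Vgll4 moved the other way, being higher under CompE in all 4 pairs with log2 ratios of 0.35 to 0.87. All CompE libraries (64.0 to 74.6 RPM) lay above all DMSO libraries (36.6 to 55.2 RPM), as was true of 5.13% of genes. The log2 fold change was 0.45 ± 0.16 and was not called (adjusted p = 0.212, and 0.0437 with the block). At P0 the summed hair cell markers ran from 486 to 980 RPM in DMSO and from 953 to 1473 in CompE. No hair cell marker was called, but all 7 lay higher under CompE, with a median log2 fold change of 0.66. Mean Atoh1 went from 53.2 to 194 RPM, and the study's own analysis reported Atoh1 as significantly raised at P0-P1. Of 8 SC markers, 1 was called lower, and by sign 6 lay lower and 2 higher under CompE. Mean Lfng, counted by the study among Notch targets, went from 2791 to 912 RPM, Jag1 from 2197 to 879 and Hey2 from 110 to 50.4. Fgfr3 went from 1571 to 1771 RPM and Sox10 from 313 to 365. The part of these markers in the shifts of Lats2 and Vgll4 was not tested.

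Tead1 was higher and Tead2 lower under CompE in all 4 pairs at P0, with overlapping groups. The log2 fold changes were 0.28 ± 0.17 for Tead1 (adjusted p = 0.558) and -0.17 ± 0.12 for Tead2 (adjusted p = 0.631). Yap1 (-0.12 ± 0.27) and Wwtr1 (-0.06 ± 0.23) were lower in 3 of 4 pairs and higher in replicate pair 1 and pair 2, respectively. Their 95% intervals, -0.72 to 0.48 and -0.58 to 0.45, leave room for changes of either sign.

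Among the targets, Ctgf was lower in 3 of 4 pairs (log2 fold change -0.27 ± 0.24, adjusted p = 0.751), Amotl2 higher in 3 of 4 (0.12 ± 0.17, adjusted p = 0.861) and Cyr61 higher in 2 of 4 (0.42 ± 0.31, adjusted p = 0.669). Pair 1 stood apart in Cyr61, with a log2 ratio of 1.99, the highest of the 4. In that pair the summed immediate-early genes were at 7933 RPM in CompE and 2545 in DMSO. Without pair 1 the log2 fold change of Cyr61 was -0.04.

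**Figure D4:**
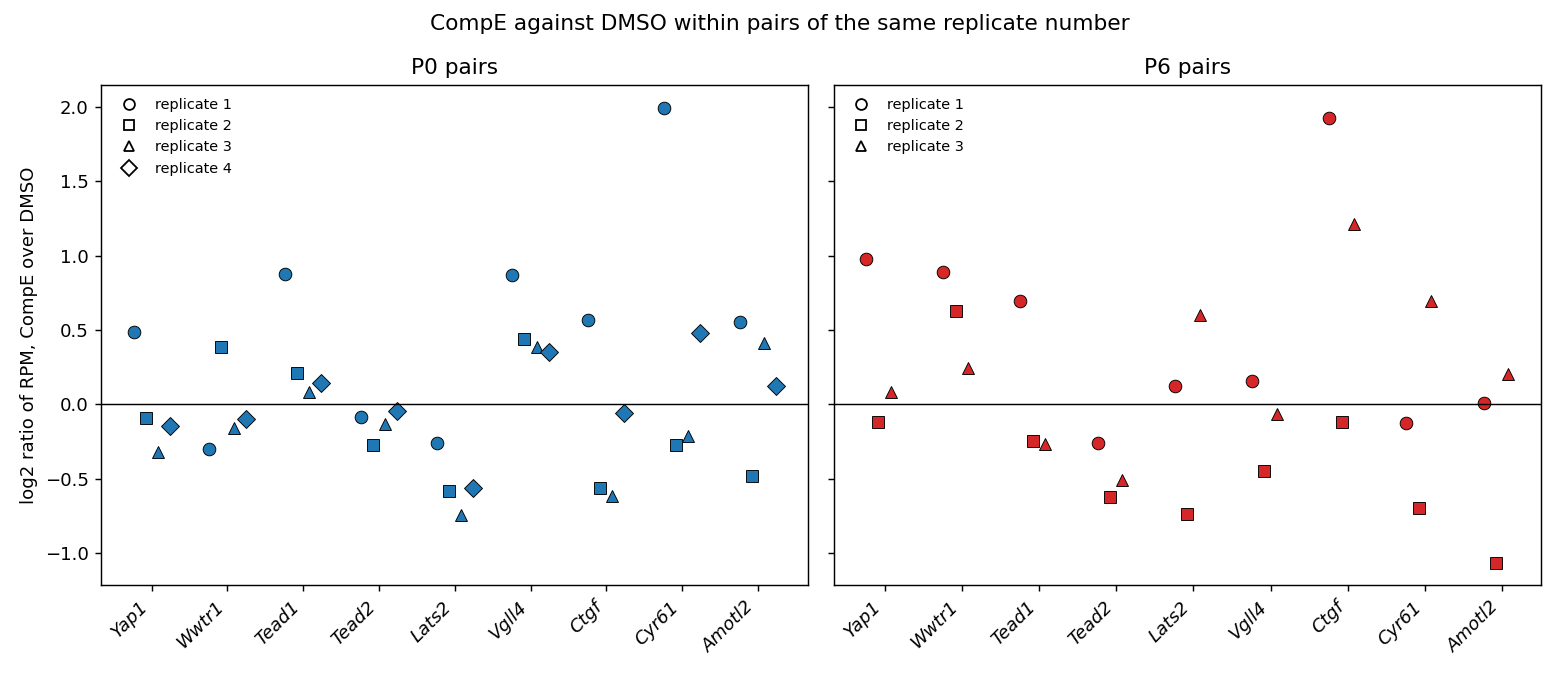
Log2 ratio of RPM under CompE to RPM under DMSO (vertical axis) in each replicate pair, for the 9 members counted in every library, at P0 and P6. Lats2 lies below 0 and Vgll4 above 0 in all 4 pairs of P0, Tead2 lies below 0 in all 7 pairs, and Wwtr1 lies above 0 in all 3 pairs of P6.

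Several pathway regulators had larger log2 fold changes under CompE at P0 than any member, but none of the 29 was called without the block. Wwc1 had 273 to 405 RPM in DMSO and 526.1 to 684.8 in CompE (log2 fold change 0.90 ± 0.16, adjusted p = 0.0113). Frmd6 had 14.8 to 25.9 RPM in DMSO and 29.5 to 54.9 in CompE (1.10 ± 0.21, adjusted p = 0.0198), and it alone was called with the replicate block (1.09, adjusted p = 0.000567). Taok3, a kinase upstream of Mst1 and Mst2, had 14.9 to 23.6 RPM in DMSO and 33.2 to 37.9 in CompE (0.78 ± 0.18, adjusted p = 0.0449). These 3 have the lowest p of the list, and none of them overlapped between treatments, as was true of 5.13% of all genes in the direction of higher levels. Wtip, named after its values were seen, lay the other way with nearly the same p as Taok3, at 17.6 to 25.5 RPM in DMSO and 13.9 to 18.1 in CompE (-0.58 ± 0.14, adjusted p = 0.0459), and its groups overlapped. In all, 6 of the 29 had an unadjusted p under 0.05, against 13.4% of all genes, and 1 was called by DESeq2. The median of the 29 was 0.01, as over all genes, with 15 above 0 and 14 below. Leaving out P0 DMSO replicate 3 also gave 1 call. The summed level of the 31 regulators was 1638 to 1951 RPM in DMSO and 2057 to 2366 in CompE at P0, and without Wwc1 the groups overlapped (1341 to 1676 and 1531 to 1681 RPM).

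Of the 16 other YAP targets, 2 fell at P0 and none rose, against 1.22% of all genes called in either direction. Igfbp3 went from 3055 to 3605 RPM in DMSO to 1204 to 1339 in CompE (2.58-fold lower, log2 fold change -1.37 ± 0.13, adjusted p = 0.000529). Ccdc80, a secreted matrix protein gene, went from 321 to 516 RPM to 155 to 196 (2.57-fold lower, -1.36 ± 0.14, adjusted p = 0.000744). Both stood well apart between treatments. With the replicate block 4 were called, Dock5 joining them below (-1.18, adjusted p = 0.00375) and Nt5e, the gene of the ecto-enzyme CD73, above (1.45, adjusted p = 0.0012), while the fit of all 14 libraries called none. The summed level of the 16 was 5120 to 6151 RPM in DMSO and 2741 to 2925 in CompE. This sum is weighted towards the most abundant genes and does not describe the list as a whole. Mean Igfbp3, the highest of the list, went from 3214 to 1280 RPM, Tgfb2 from 1303 to 940 and Ccdc80 from 431 to 172. By sign, 9 of the 16 lay lower under CompE and 7 higher, with a median log2 fold change of -0.20 against 0.01 for all genes.

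At P6, edgeR called 0% of 15322 genes under CompE, with 1.89% at an unadjusted p under 0.05 (the replicate block also called none). The Notch target Hes5, at a log2 fold change of -4.27, was not called either, so a lack of calls at P6 does not show a lack of change. The study's own DESeq2 analysis, at the same thresholds, did report changed genes at this age. No member was called by edgeR or DESeq2, and Wwtr1 and Ctgf were the 2 with an unadjusted p under 0.05. Wwtr1 was higher under CompE in all 3 pairs, with log2 ratios of 0.25 to 0.89 and no overlap (3.04% of genes were higher without overlap). Its log2 fold change was 0.60 ± 0.18 (95% interval 0.18 to 1.01, unadjusted p = 0.0110). Ctgf was higher in 2 of 3 pairs, with log2 ratios of -0.12 to 1.93, and its log2 fold change was 1.25 ± 0.48 (95% interval 0.13 to 2.38, unadjusted p = 0.0336). The adjusted p was close to 1 for both. With the replicate block Tead2 joined them (unadjusted p = 0.0188, adjusted p = 0.598), when 7.23% of all genes had an unadjusted p under 0.05.

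Tead2 was lower under CompE in all 3 pairs of P6, with log2 ratios of -0.62 to -0.26 and overlapping groups (log2 fold change -0.42 ± 0.32). Cyr61 (0.00 ± 0.42), Amotl2 (-0.01 ± 0.73), Tead1 (0.01 ± 0.39), Lats2 (0.19 ± 0.47), Vgll4 (-0.07 ± 0.22) and Yap1 (0.34 ± 0.22) had intervals that included 0. For Amotl2 the 95% interval reached from -1.73 to 1.71, so these libraries do not exclude a change of 2-fold in either direction. The median of the members was 0.01 and that of all genes 0.00.

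None of the 29 regulators and none of the 16 other targets was called at P6, by edgeR or by DESeq2. No regulator had an unadjusted p under 0.05, the 3 lowest belonging to Mob1b (0.26 ± 0.13), Dchs1 (-0.79 ± 0.60) and Wwc1 (0.24 ± 0.19). Among the targets, 3 did, namely Dock5 (-1.43 ± 0.40), Igfbp3 (-2.05 ± 0.59) and Axl (-0.81 ± 0.31), a receptor kinase gene. Igfbp3 had 473 to 1620 RPM in DMSO and 164 to 505 in CompE, which overlapped.

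The third comparison tested whether the response to CompE differed between the ages. The interaction of age and treatment was called for no member by edgeR or DESeq2 and for 0% of all genes in edgeR (4.75% had an unadjusted p under 0.05, and 0.0936% were called with the replicate block). Without the block, Ctgf alone among the members had an unadjusted p under 0.05, with a response 1.53 ± 0.54 higher at P6 on the log2 scale (95% interval 0.38 to 2.68, adjusted p = 0.860). For Lats2 the difference of the responses was 0.78 ± 0.44 and for Vgll4 -0.51 ± 0.27, with intervals of -0.16 to 1.71 and -1.09 to 0.07. With the replicate block, 3 of the 9 members had an unadjusted p under 0.05, as did 9.87% of all genes, and none was called. They were Wwtr1 (0.69 ± 0.20, unadjusted p = 0.00676, adjusted p = 0.240), Vgll4 (-0.56 ± 0.19, unadjusted p = 0.0143, adjusted p = 0.337) and Ctgf (1.26 ± 0.46, unadjusted p = 0.0207, adjusted p = 0.383). For Lats2 and Vgll4, a difference between the responses at P0 and P6 did not pass the adjusted threshold in either fit. No gene of the 2 pathway lists was called by either tool, with 4 regulators and no other target at an unadjusted p under 0.05. The lowest p belonged to Taok3 (-1.0 ± 0.35), Wwc1 (-0.64 ± 0.26) and Tead4 (-1.56 ± 0.67) among the regulators and to Ccdc80 (0.81 ± 0.41), Fjx1 (0.93 ± 0.50) and Asap1 (0.31 ± 0.24) among the targets.

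The genes nearest to each member across the 14 libraries were found by the root mean square difference of their log2 profiles, each centred on its own mean, among the 9987 genes whose mean over libraries reached 10 RPM. The 14 libraries share their age and treatment groups, and the likeness is given as a description. Cyr61 was closest to Fos (0.54), the immediate-early transcription factor gene, then to Thbs1 (0.56) and Cdh3 (0.57). Ctgf was closest to Nav2 (0.41), Lama2 (0.50) and CJ186046Rik (0.53), and Amotl2 to Tmem132c (0.49), Adgrg2 (0.51) and again Nav2 (0.53). Lats2 was nearest to Cep170 (0.28), Zfyve9 (0.30) and Stra6 (0.31) and Tead2 to Slc7a6 (0.20), Igf2bp3 (0.21) and Ankrd6 (0.21). The members with small differences had closer neighbours, with Dyrk2 (0.14), U2af2 (0.17) and Vsig10 (0.18) for Vgll4 and Mib1 (0.16), Aff4 (0.20) and Pank3 (0.20) for Yap1. Wwtr1 was nearest to Ndufaf1 (0.19), Rnf217 (0.19) and Rhoq (0.20), and Tead1 to Tab2 (0.19), Wnk1 (0.19) and Cyld (0.19). No member was among the 3 nearest genes of another.

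In GRCm38 with GENCODE M21, the called genes lie on chromosome 7 (Tead2, 45215753 to 45233644, plus strand), chromosome 14 (Lats2, 57689662 to 57758388, minus strand), chromosome 10 (Ctgf, named Ccn2 there, 24595442 to 24598683, plus strand), chromosome 3 (Cyr61, named Ccn1, 145646976 to 145649981, minus strand) and chromosome 9 (Amotl2, 102716672 to 102733418, plus strand). Yap1 also lies on chromosome 9 (7931999 to 8004596, minus strand) and Wwtr1 on chromosome 3 (57455649 to 57575910, minus strand). Tead1 lies on chromosome 7 (112679318 to 112906807, plus strand), Vgll4 on chromosome 6 (114860628 to 114969994, minus strand) and Ankrd1 on chromosome 19 (36111961 to 36120099, minus strand). Counts are over exons of the whole gene, coding and untranslated, so transcripts of a gene are not separated.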

How the data were processed

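Polyadenylated RNA of sorted GFP-positive SCs was amplified as full-length cDNA (SMART-Seq v4 PLUS) without molecular identifiers. According to the submitters' processing notes, the authors trimmed reads with Trim Galore 0.6.0 and cutadapt 1.15 and mapped them with STAR 2.7.0f to GRCm38 (mm10); the methods of the study name another STAR release. The authors deposited raw counts per gene symbol, 1 table for each age. Neither the annotation nor whether counting used strand is given in the sources used here. The deposited counts were unfiltered (10113 genes were at 0 throughout P0 and 12139 throughout P6).

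RPM is a count divided by the library total over genes, times 1000000, and RPKM also divides by the union of the gene's exons in GENCODE M21; older symbols were matched through RefSeq synonyms. Log2 fold changes, SE and p were obtained with edgeR 4.0.16 in R 4.3.3 (TMM, filterByExpr with a minimum count of 10, glmQLFit and glmQLFTest), with Benjamini-Hochberg adjustment over all genes tested. A call needed an adjusted p no higher than 0.01 together with a 2-fold change or more. Each age was fitted alone for treatment, and all 14 libraries were fitted together for the interaction and the age comparisons. DESeq2 1.42.0 was run as an alternative. The fits were tested on simulated data.

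Groups, replicate numbers and batches come from the labels. Batch 3 held replicates 3 and 4 of P0, and each other replicate number had a batch of its own. Same-numbered CompE and DMSO libraries deviated together from their group means (correlation across genes of 0.124 to 0.427 at P0 and 0.235 to 0.586 at P6), so the block treats them as pairs. No 2 replicates agreed within sampling noise (the smallest chi-square over its degrees of freedom was 20.5). Where the labels do not say that libraries came from separate animals, p-values measure the spread between these libraries.

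The members and all gene lists were chosen with earlier results of these data known. Named are every member, every called gene of the pathway lists (at most 6, otherwise the 3 with the lowest p), the 3 genes nearest to each member, and Hes1, Hes5, Heyl and Nrarp. Marker lists covered SCs, hair cells, mesenchyme, smooth muscle and pericytes, endothelium, macrophages, Schwann cells, neurons and immediate-early genes. Alternatives were DESeq2, its size factors in edgeR, no filter on low counts, an adjusted p of 0.05 without a fold threshold, the replicate or batch as a block, 1 fit of all 14 libraries, and leaving out each library. Leaving out the P0 replicate 1 pair (low SC markers in DMSO) and the P6 replicate 3 pair (high mesenchyme markers) was added after the data had been seen. The single-cell and imaging data of the study were not analysed here.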

Additional observations from a re-analysis of the deposited data

Results flagged for a closer look

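Among 20 groups of 4 libraries (each of the 10 genes in DMSO and CompE at P0), 3 held a library far from the other 3. About 1 would be flagged by chance in independent groups. The 10 genes share the same libraries, so these counts do not test for an excess. Lats2 stood at 24.6 RPM in CompE replicate 1 at P0, above the other CompE libraries (20.2 to 20.9 RPM) and still below every DMSO library. Ctgf stood at 97.2 RPM in DMSO replicate 1 at P0, below the other DMSO libraries (189.6 to 204.4 RPM), and without the P0 replicate 1 pair it was still called lower at P6 in DMSO. Ankrd1 stood at 0.0900 RPM (4 counts) in CompE replicate 1 at P0 with 0 counts in the other CompE libraries, which is too few to compare. A group with a single library above 0 is always flagged by this rule. All 3 fell in replicate pair 1 of P0.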

How the results depend on the processing

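The calls of Cyr61 in both age comparisons and of Ctgf in DMSO held in every alternative, and no member was called for CompE or for the interaction in any alternative but the looser threshold (an adjusted p of 0.05 and no minimum fold), which called 1 member (Lats2) at P0. The median log2 fold change of all genes differed by under 0.01 between TMM and DESeq2's size factors. No paired analysis was possible for the age comparisons because no batch held both ages. Leaving out 1 library was run for the libraries of the groups compared. With 3 or 4 libraries a group, the spread between libraries limits what can be called, and Ankrd1 had too few counts to test. The part of depth was not tested. The cause of the shifts below was not tested.

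At P0, the 0 regulators called under CompE became 1 with DESeq2, without the filter on low counts, with the replicate block and with the batch block, 4 with the looser threshold and 0 to 1 without 1 library, and the 2 other targets became 4 with the replicate block and 0 in the fit of all 14 libraries. The replicate block changed no other call of the members or of the 2 lists. With age in DMSO, the 5 members became 6 with the looser threshold and ranged from 2 to 5 without 1 library (3 without P0 DMSO replicate 4 or P6 DMSO replicate 1, 2 without P6 DMSO replicate 2). The 1 regulator became 3 with DESeq2, 5 with the looser threshold, 3 without the P6 replicate 3 pair and 0 to 2 without 1 library. The 2 other targets became 7 with the looser threshold, with Axl, Nt5e and Gadd45a among them higher at P6. The count of other targets was 1 without the P6 replicate 3 pair and 1 to 3 without 1 library. With age in CompE, the 3 members ranged from 2 to 4 over all alternatives. The 1 other target became 2 with DESeq2, 4 with the looser threshold, 0 without the P0 replicate 1 pair and 0 to 2 without 1 library, and the 2 regulators became 7 with the looser threshold and 1 to 3 without 1 library.

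Signs turned only among uncalled log2 fold changes. Without the P0 replicate 1 pair, Cyr61 was at -0.0354 at P0 and 0.0593 in the interaction. At P6, Amotl2 was at 0.0030 with DESeq2 and 0.0027 with its size factors, Cyr61 at -0.0274 with the replicate or batch block and -0.30 without the P6 replicate 3 pair, and Lats2 at -0.20 without that pair, without which Tead1 was at -0.0698 (DMSO) and -0.11 (CompE) with age. Without 1 library, the P0 response ran from -0.19 to 0.11 for Wwtr1 and -0.34 to 0.0197 for Yap1. The P6 response ran from -0.23 to 0.46 for Tead1, -0.27 to 0.39 for Cyr61, -0.91 to 0.57 for Amotl2, -0.29 to 0.11 for Vgll4 and -0.37 to 0.55 for Lats2. The interaction ran from -1.04 to 0.44 for Amotl2 and -0.51 to 0.17 for Tead1. With age, Wwtr1 ran from -0.26 to 0.0242 and Tead1 from -0.0719 to 0.61 in DMSO, and Vgll4 from -0.14 to 0.26 and Tead1 from -0.11 to 0.29 in CompE.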
